A study of Drosophila melanogaster with 24 samples.

Results

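The germ line and oocyte polarity genes orb, pgc, nos, osk, vas, bcd, grk, otu and CycE were followed through 24 arrays of adult Drosophila melanogaster females. A probe set was taken when the platform annotation named 1 gene for it and that gene's current or older symbol was among these names. This gave 11 probe sets for 9 genes, with a pair each for orb and nos, out of 13966 probe sets, of which 12443 named a single gene (10845 distinct genes). All 11 passed the filter on low values (a log2 value above 4 on at least 3 of the 24 arrays), as did 9023 probe sets of 7439 single genes in all. The annotation lists nos under its full name nanos, and vas carries an older gene identifier with the same symbol.

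Each array held RNA of whole females from 1 line, extracted from a vial of 10 females, so every value pools animals and tissues. The 8 groups had 3 lines each: unselected control lines, lines labelled heat, cold, starvation, desiccation, longevity or knock_down selected (the last written knock-down here), and lines named constant 30. The sources used here do not give the kind of knock-down, the strain, the age of the females or the generations of selection. They also do not say whether the females of the constant 30 lines were kept at 30 degrees. Lines are named as biological replicates, and each p-value sets a difference against the spread between such lines.

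In the Drosophila ovary, germ line stem cells divide into cysts in which a single cell becomes the oocyte and its sisters become nurse cells. The nurse cells copy their DNA repeatedly without dividing and load the oocyte with maternal RNAs and proteins. Some of these RNAs are moved to one end of the oocyte and translated only there, which sets the axes of the embryo and assembles the pole plasm from which the next generation's germ cells form. The products of orb and otu act early, in the cyst and the forming oocyte. Those of osk, vas, nos and pgc belong to the pole plasm, bcd and grk encode signals that pattern the axes, and CycE drives DNA replication in these and in other dividing cells.

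Median log2 values per array ran from 5.46 to 5.58, and arrays of a group correlated with each other at 0.986 to 0.995 over all probe sets. In 4 of 11 probe sets, described below, the same 5 of the 24 arrays were the lowest. They were the 3 heat selected lines, cold selected replicate 3 and knock-down selected replicate 2. The share of all tested probe sets with the same 5 lowest arrays is not given here. Levels are given on the deposited log2 scale, on which a difference of 1 is a doubling, and a change is the difference of 2 group means with its standard error from limma. A probe set was called when its p, adjusted by Benjamini and Hochberg over all 9023 tested, was under 0.05. In whole females a smaller number of germ line cells and less RNA per cell cannot be told apart.

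Heat selected females had less CycE transcript than control females, and less CycE and orb transcript than the mean of the other regimes. These calls were lost with RNA quality in the fit or without heat selected replicate 2. The RNA quality measure itself separated heat selected from control lines. CycE, whose protein activates Cdk2 at the start of DNA replication, was 1 of 11 probe sets called against control, where 2.84% of all tested probe sets were called and 0.842% were called lower. The orb gene, which encodes an RNA-binding protein of the CPEB family that controls the poly(A) tails and the translation of maternal RNAs, was called by 1 of its 2 probe sets, with CycE, when heat selected lines were set against the mean of the other 6 regimes, where 11.1% of all tested were called and 4.06% were called lower. No probe set of the 9 genes was called higher in any comparison, and none was called outside these 2 comparisons.

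**Figure D1:**
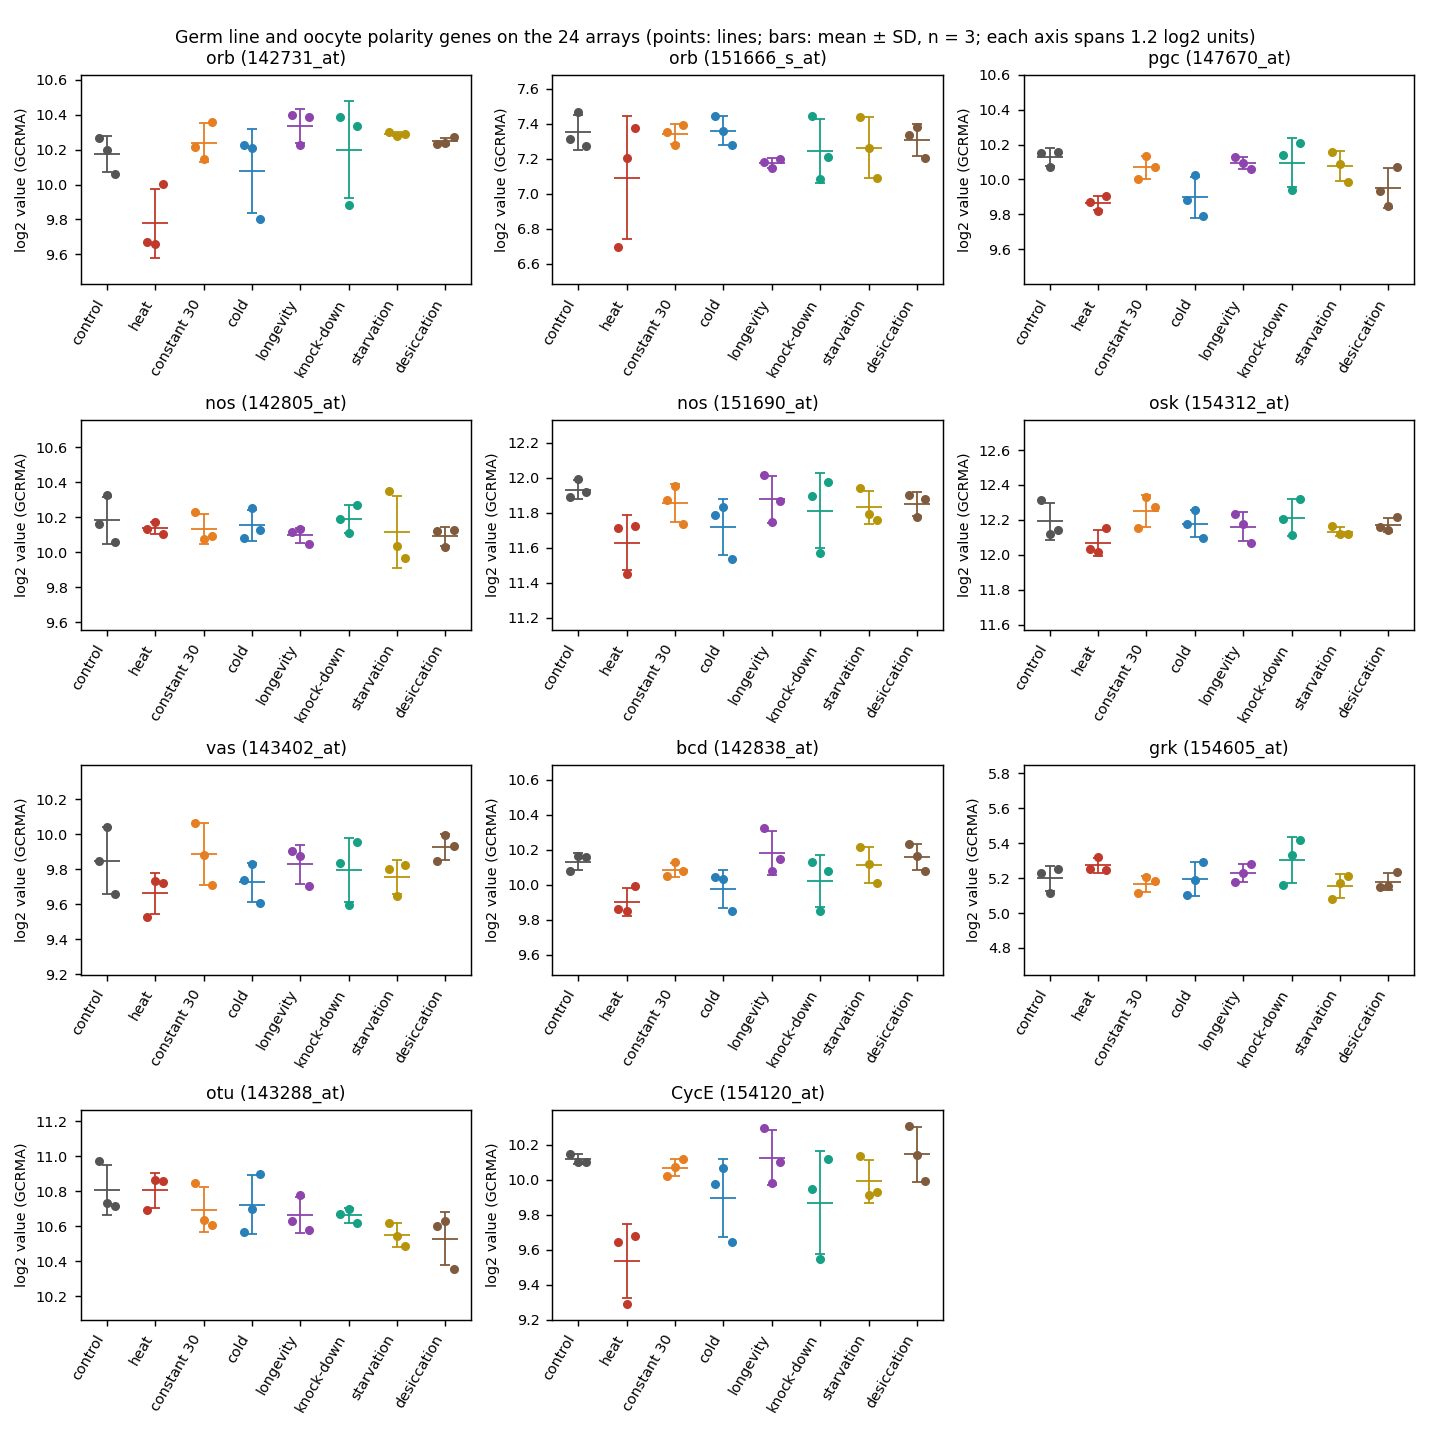
Deposited log2 value of each of the 11 probe sets on every array, by group, with a point for each line and a bar for the mean ± SD (n = 3). Every vertical axis (log2 value) spans the same number of log2 units. The heat selected lines have the lowest group mean in 8 of 11 panels, and for CycE and orb (142731_at) they lie with cold selected replicate 3 and knock-down selected replicate 2 below all other arrays.

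The CycE probe set (154120_at) read 10.15, 10.10 and 10.10 in the control lines and 9.64, 9.29 and 9.68 in the heat selected lines. All 3 heat selected values lay below all 3 control values, and heat selected replicate 2 was the lowest array of the 24. The heat selected mean was 9.54 ± 0.21 (SD, n = 3), the change was -0.58 ± 0.14 (SE), and the adjusted p was 0.0339 in limma. On the linear scale the heat selected mean was 0.669 of the control mean, with a 95% interval of the log2 change from -0.86 to -0.29.

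Low CycE values in the other regimes fell on single arrays. CycE read 10.02, 10.07 and 10.12 in constant 30 lines, 10.29, 9.98 and 10.10 in longevity selected lines, 10.13, 9.91 and 9.93 in starvation selected lines, and 10.30, 10.14 and 9.99 in desiccation selected lines. It read 9.98, 10.06 and 9.64 in cold selected lines, and 9.95, 9.54 and 10.12 in knock-down selected lines. Cold selected replicate 3 and knock-down selected replicate 2 were thus as low as heat selected lines, and their sister lines were not. Cold selected lines lay below all control values for CycE, by -0.22 ± 0.14, and this change was not called (adjusted p = 0.716 in limma). Against the mean of the other 6 regimes, CycE in heat selected lines differed by -0.48 ± 0.10 (adjusted p = 0.0149 in limma), and the heat selected values overlapped those of the other regimes only through these 2 arrays.

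The orb probe set with the higher control values (142731_at) read 10.27, 10.20 and 10.06 in control lines and 9.67, 9.66 and 10.01 in heat selected lines. All heat selected values lay below all control values, with heat selected replicate 3 close under the lowest of them. The change against control was -0.40 ± 0.12 and was not called (adjusted p = 0.0804 in limma). It read 10.21, 10.14 and 10.36 in constant 30 lines, 10.23, 10.21 and 9.80 in cold selected lines, and 10.38, 9.88 and 10.33 in knock-down selected lines. The low arrays of the latter regimes were again cold selected replicate 3 and knock-down selected replicate 2. It read 10.40, 10.23 and 10.39 in longevity selected lines, 10.30, 10.28 and 10.29 in starvation selected lines, and 10.23, 10.24 and 10.27 in desiccation selected lines. Starvation selected lines were the one group whose 3 values lay above all control values for any of the 9 genes, by 0.11 ± 0.12 (adjusted p = 0.796 in limma), which was not called. Set against the mean of the other 6 regimes, heat selected lines had -0.45 ± 0.10 for orb, which was called (adjusted p = 0.0130 in limma), at 0.730 of their mean on the linear scale.

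The second orb probe set (151666_s_at) read 7.31, 7.46 and 7.27 in control lines and 6.70, 7.21 and 7.37 in heat selected lines. Only heat selected replicates 1 and 2 lay below the controls, and replicate 1 was the lowest array of the 24. Its change against control was -0.26 ± 0.13, and it was not called (adjusted p = 0.261 in limma). Over the 24 arrays the 2 orb probe sets correlated at r = 0.48, and at 0.56 after each group mean was taken off. In longevity selected lines this probe set read 7.18, 7.15 and 7.20, below all controls by -0.18 ± 0.13 (adjusted p = 0.756 in limma), while 142731_at was above the control mean by 0.16 ± 0.12 (adjusted p = 0.764). The difference between the 2 probe sets was not tested.

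Both calls rested on the choice of arrays and terms in the fit. With the RNA quality of each array (a 3 prime minus 5 prime difference, described further on) as a covariate, the change of CycE against control was -0.39 (adjusted p = 0.281 in limma), and those against the other 6 regimes were -0.30 for CycE (adjusted p = 0.397) and -0.33 for orb (adjusted p = 0.374). All heat selected values of this measure lay below all control values. Measure and regime are thus confounded against control, and the loss of a call does not show its cause. The call of CycE against control was also lost when control replicate 1, control replicate 2, heat selected replicate 1 or heat selected replicate 2 was left out, and both calls against the other regimes were lost without heat selected replicate 2. Every alternative kept both genes below the group they were compared with, from -0.65 to -0.39 for CycE against control and from -0.57 to -0.33 for orb against the other 6 regimes.

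The pole plasm genes showed lower values in heat selected lines that passed no test. The pgc gene, whose small protein silences transcription in the forming germ cells, read 10.15, 10.07 and 10.16 in control lines and 9.87, 9.82 and 9.90 in heat selected lines. The groups did not overlap, and the spread among heat selected lines was small (SD 0.042). The change was -0.26 ± 0.08 with an adjusted p of 0.0618 in limma, and -0.17 ± 0.06 against the other 6 regimes (adjusted p = 0.0682).

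Levels of pgc were also low in 2 other regimes. It read 9.88, 10.02 and 9.79 in cold selected lines, all below the controls, by -0.23 ± 0.08 (adjusted p = 0.535 in limma). It read 9.93, 9.85 and 10.07 in desiccation selected lines, by -0.18 ± 0.08 (adjusted p = 0.668), with replicate 3 at the level of control replicate 2. The remaining regimes read 10.00, 10.13 and 10.07 (constant 30), 10.13, 10.10 and 10.06 (longevity selected), 10.14, 9.94 and 10.21 (knock-down selected) and 10.16, 10.09 and 9.98 (starvation selected), each overlapping the controls. The order of the group means ran from control at 10.13 down to desiccation selected at 9.95, cold selected at 9.90 and heat selected at 9.86, and none of these neighbours separated by all values.

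For nos, whose protein represses translation at the posterior pole and maintains germ line stem cells, the 2 probe sets differed. Probe set 151690_at read 11.89, 11.99 and 11.92 in control lines and 11.71, 11.45 and 11.73 in heat selected lines, without overlap, with a change of -0.30 ± 0.11 (adjusted p = 0.110 in limma). It read 11.79, 11.83 and 11.54 in cold selected lines, also below all controls, and 11.90, 11.57 and 11.97 in knock-down selected lines. Cold selected replicate 3 and knock-down selected replicate 2 were thus low for nos as well. It lay between 11.74 and 12.02 on the 12 arrays of the other regimes.

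Probe set 142805_at of nos read 10.16, 10.32 and 10.06 in control lines and 10.13, 10.17 and 10.11 in heat selected lines, and the groups overlapped. Its change was -0.04 ± 0.09 (adjusted p = 0.814 in limma), and its 8 group means spanned 0.10, from 10.09 in desiccation selected to 10.19 in knock-down selected lines. The 2 nos probe sets correlated at r = 0.28 over the 24 arrays. The starvation selected lines held both its highest and its lowest array, at 10.35 and 9.96.

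For the other pole plasm genes no group separated from the controls. The osk gene, whose protein starts pole plasm assembly, read 12.31, 12.12 and 12.14 in control lines and 12.03, 12.02 and 12.16 in heat selected lines, a change of -0.12 ± 0.07 (adjusted p = 0.346 in limma). Its 24 values lay between 12.02 and 12.33, and every group overlapped the controls. The vas gene, which encodes a DEAD-box RNA helicase of the pole plasm and of the nuage around nurse cell nuclei, read 9.85, 10.04 and 9.66 in control lines and 9.53, 9.73 and 9.72 in heat selected lines. The control lines of vas were widely spread. The change of vas in heat selected lines was -0.19 ± 0.11 (adjusted p = 0.351 in limma), and its highest group mean, 9.93, was that of desiccation selected lines.

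Of the axis genes, bcd had lower values in heat selected lines, and grk, whose signal was low on all arrays, did not. The bcd gene, which encodes the homeodomain protein of the anterior gradient, read 10.08, 10.16 and 10.16 in control lines and 9.86, 9.85 and 9.99 in heat selected lines. The groups did not overlap, and the change was -0.23 ± 0.08 (adjusted p = 0.117 in limma), or -0.19 ± 0.06 against the other 6 regimes (adjusted p = 0.0585). It read 10.04, 10.03 and 9.85 in cold selected lines, all below the controls, and 10.13, 9.85 and 10.08 in knock-down selected lines. The same arrays of the cold and knock-down selected lines were low once more. The other regimes lay between 10.01 and 10.32, with the highest group mean in longevity selected lines at 10.18.

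The grk gene, which encodes the TGF-alpha-like ligand that the oocyte sends to the follicle cells, read 5.23, 5.11 and 5.25 in control lines and 5.25, 5.32 and 5.25 in heat selected lines. All 24 values of grk lay between 5.08 and 5.41, above the filter but below the array medians of 5.46 to 5.58. Each group overlapped the controls, and signal over background was not assessed for grk. Its change was 0.07 ± 0.07 (adjusted p = 0.567 in limma), the one value above 0 among the 11 probe sets, and its highest group mean was 5.30 in knock-down selected lines.

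The otu gene, which encodes a germ line deubiquitinase needed for cyst divisions and nurse cell growth, had a different order of groups from CycE and orb. It read 10.97, 10.73 and 10.72 in control lines and 10.69, 10.86 and 10.86 in heat selected lines, with group means of 10.81 in both. It was lowest in desiccation selected lines, at 10.60, 10.63 and 10.36, and in starvation selected lines, at 10.62, 10.54 and 10.49. Both groups lay below all controls, by -0.28 ± 0.10 (adjusted p = 0.514 in limma) and -0.26 ± 0.10 (adjusted p = 0.450), and neither change was called. Knock-down selected lines read 10.67, 10.70 and 10.62, also below all controls, by -0.14 ± 0.10 (adjusted p = 0.646 in limma). The otu values were 10.85, 10.64 and 10.61 in constant 30 lines, 10.57, 10.70 and 10.90 in cold selected lines, and 10.63, 10.78 and 10.58 in longevity selected lines, and these overlapped the controls. Set against the other 6 regimes, heat selected lines were higher for otu by 0.17 ± 0.07, which was not called (adjusted p = 0.130 in limma).

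**Figure D2:**
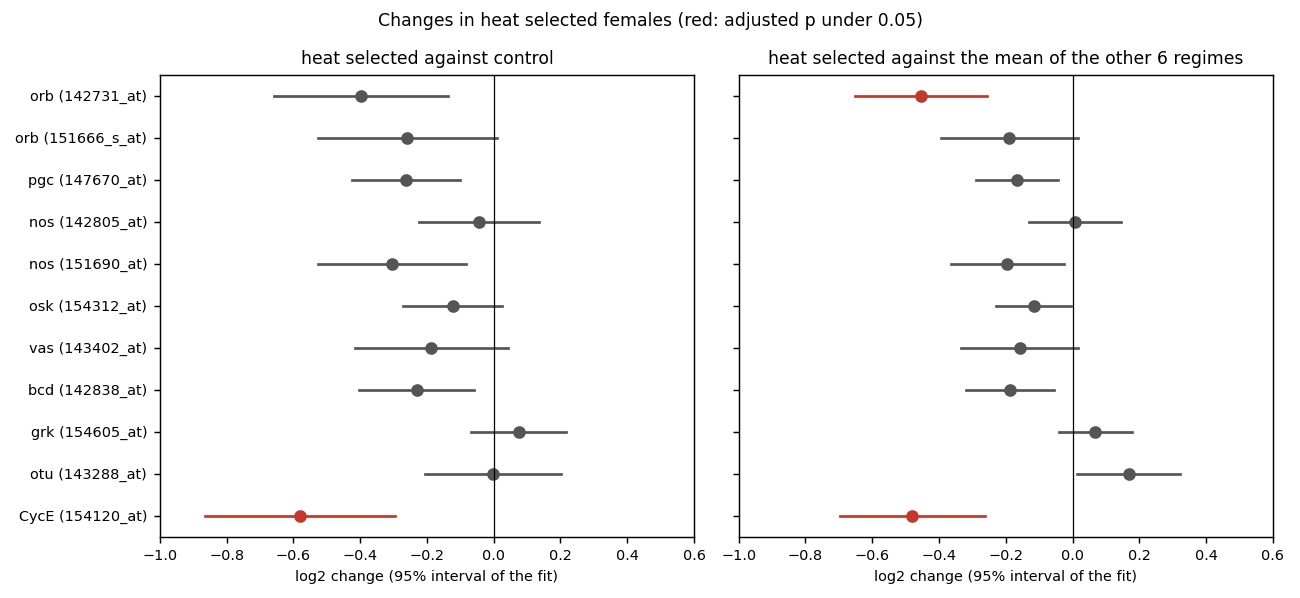
Log2 change of each of the 11 probe sets in heat selected lines against control and against the mean of the other 6 regimes (horizontal axis: log2 change, points with 95% intervals of the fit, red where called). CycE is called in both comparisons and orb (142731_at) in the second, and grk and otu lie at or above 0.

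Counted together, 10 of 11 probe sets had a change below 0 in heat selected lines against control, where 46.5% of all tested probe sets did, and their median was -0.23 against 0.01 over all tested. In 5 of 11 (CycE, orb 142731_at, pgc, nos 151690_at and bcd) all heat selected values lay below all control values, which held for 11.4% of all tested. The same 5 had an unadjusted p under 0.05 in limma, where 8.99% of all tested did with a lower value. These shares describe the 9 genes without a test. Against the other 6 regimes 8 of 11 were below 0 (40.3% of all tested), with a median of -0.17 against 0.04, and 7 of 11 had an unadjusted p under 0.05 (31.1%), otu being the one that was higher.

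The other regimes gave smaller shifts. In cold selected lines 10 of 11 probe sets were below 0 (56.4% of all tested), with a median of -0.10 against -0.02 over all tested. All cold selected values lay below all controls in 4 of 11 (CycE, pgc, nos 151690_at and bcd), and 7.29% of all tested did so. None was called in limma, as was no probe set of the array (0%), and 1 of 11, pgc, had an unadjusted p under 0.05 (7.9% of all tested). Starvation selected lines had 10 of 11 below 0 (60.2% of all tested) with a median of -0.07 against -0.03. There 1 probe set lay below all controls (11.8% of all tested) and 1 above them (3.56%), and otu alone had an unadjusted p under 0.05 (9.21%).

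Constant 30 lines had 8 of 11 probe sets below 0 (58.3% of all tested). Longevity, knock-down and desiccation selected lines had 7 of 11 each, against 59%, 56.6% and 56.6% of all tested. The medians of these 4 groups ran from -0.05 to -0.02. No probe set of the 9 genes separated from the controls in constant 30 lines, where 13.1% of all tested did. In each of the other 3 regimes 1 of 11 lay below the controls, which 9.54%, 9.48% and 12.9% of all tested did in longevity, knock-down and desiccation selected lines. Limma called none of the 11 in constant 30 lines (0% of all tested), longevity selected lines (0%), knock-down selected lines (0.155%), starvation selected lines (0%) or desiccation selected lines (0.0776%). At an unadjusted p under 0.05 the desiccation selected lines gave 2 of 11, otu and pgc (7.17% of all tested), and constant 30 (6.98%), longevity selected (7.95%) and knock-down selected lines (10.4%) gave 0. The mean of the 7 regimes against control gave 0 called of 11 in limma (0% of all tested), 0 at an unadjusted p under 0.05 (10.9%) and 10 below 0 (59.1%). A test for any difference between the 8 groups called none of the 11 (0.0554% of all tested) and gave 4 at an unadjusted p under 0.05 (15.4%), with the lowest adjusted p at 0.170 for CycE and 0.192 for orb 142731_at. These comparisons share the 3 control arrays, so their values are not independent of each other.

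**Figure D3:**
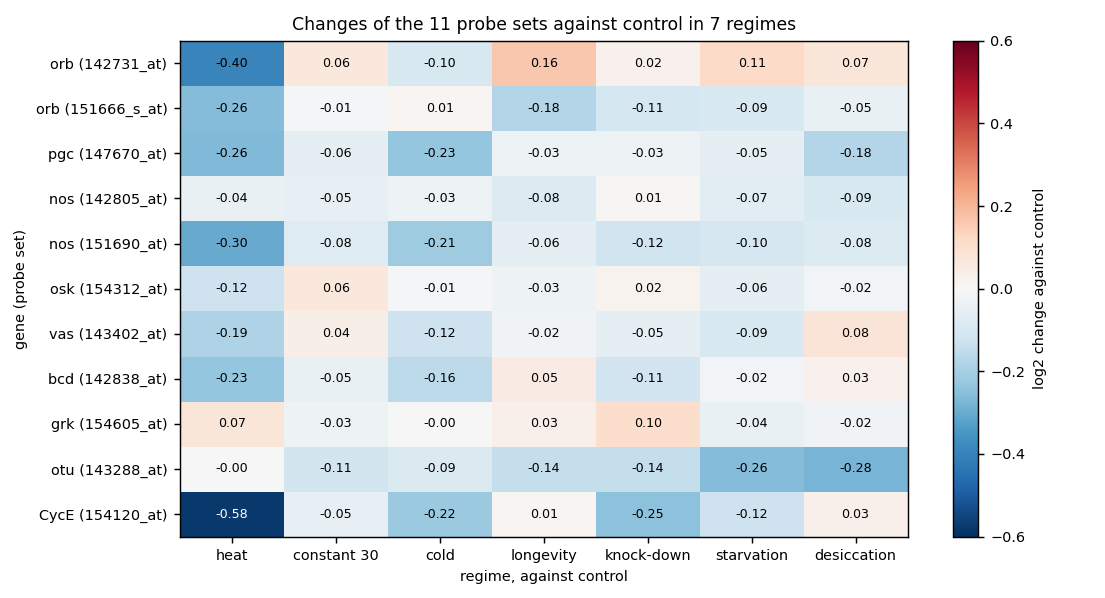
Log2 change of the 11 probe sets (rows) against control in each of the 7 regimes (columns), with the value in each cell and colour for its size. CycE in heat selected lines, at -0.58, is the one called change. The otu row is lowest in the starvation and desiccation selected columns, at -0.26 and -0.28.

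Ordered by group mean, neighbouring groups overlapped almost throughout. Among 7 neighbouring pairs per probe set, 1 pair separated by all values for orb 142731_at, where starvation selected lines at 10.29 lay above desiccation selected lines at 10.25, and 0 did for the other 10 probe sets. The largest spans of the group means were 0.61 for CycE, from 9.54 in heat selected to 10.15 in desiccation selected lines, and 0.56 for orb 142731_at, from 9.78 to 10.34 in longevity selected lines. The share of the variance over arrays that lay between groups was 63.6% for CycE, 63.0% for pgc and 61.1% for orb 142731_at, against a median of 36.8% over all tested probe sets. It was 13.4% for nos 142805_at.

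The low values fell on the same arrays. In 4 of 11 probe sets (CycE, bcd, nos 151690_at and orb 142731_at) the 5 lowest of the 24 arrays were the 3 heat selected lines, cold selected replicate 3 and knock-down selected replicate 2. Heat selected replicate 1 was among the 5 lowest in 8 of 11, cold selected replicate 3 and knock-down selected replicate 2 in 7 of 11 each, and heat selected replicates 2 and 3 in 6 and 4. Of their sister lines, cold selected replicate 1 was among the 5 lowest in 3 of 11, and cold selected replicate 2 and knock-down selected replicates 1 and 3 in 0 of 11. For all tested probe sets, the share with the same 5 lowest arrays is not given here, nor are the counts for single arrays. The low arrays thus cannot be read as particular to the genes followed here.

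Over the arrays, a measure of RNA quality moved with several of these genes, though not on each low array. The difference between the 3 prime and 5 prime probe sets of the fly control transcripts (actin, GAPDH and eIF-4a), a measure of RNA length, was 1.74, 1.69 and 1.82 in control lines and 1.62, 1.34 and 1.68 in heat selected lines. It was 1.65 in cold selected replicate 3 and 1.50 in knock-down selected replicate 2, and the other 16 arrays lay between 1.63 and 1.93. The 1.63 was that of cold selected replicate 2, where CycE read 10.06. Heat selected replicate 2 and knock-down selected replicate 2 had the lowest differences of the 24, that is, the least excess of 3 prime over 5 prime signal. Over the 24 arrays this difference correlated with CycE at r = 0.74, with bcd at 0.72 and with orb 142731_at at 0.68. The other probe sets ran from -0.37 for nos 142805_at to 0.67 for nos 151690_at, with orb 151666_s_at at 0.12. These are descriptions over arrays that share groups and a joint normalization, and the fit with this measure as a covariate is given above.

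**Figure D4:**
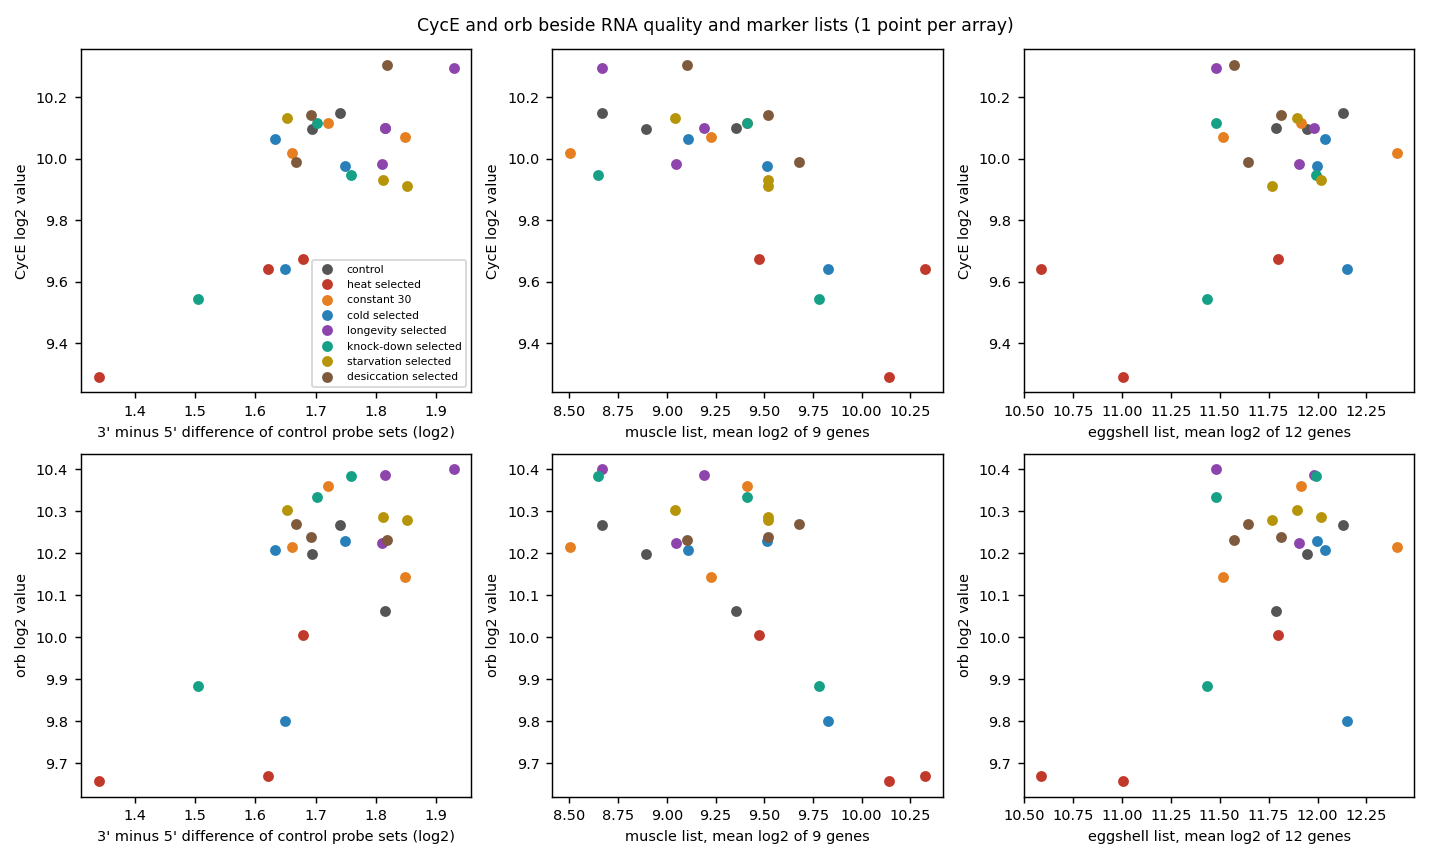
Values of CycE (upper row) and orb 142731_at (lower row) on each array (vertical axes: log2 value) against the 3 prime minus 5 prime difference of the control transcripts, the mean of the muscle markers and the mean of the eggshell markers (horizontal axes: log2 units), with groups by colour. Heat selected arrays have muscle scores from 9.47 to 10.33 and CycE values of 9.29 to 9.68. The lowest of these scores, in replicate 3, lies below those of several arrays of other regimes. Among them is desiccation selected replicate 3, with a score of 9.68 and CycE at 9.99.

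Markers of other tissues differed too. In heat selected lines against control limma called 2.84% of all tested probe sets, and 0.842% were called lower. The 9 muscle markers tested, of 12 listed, were all above 0 there, with a median of 0.91. Limma called 4 of 9 higher: Mlc1 (1.17), Tm2 (0.97), up (0.91) and sls (0.69). The muscle markers also had medians above 0 in the other 6 regimes, from 0.22 in constant 30 to 0.50 in cold selected lines, with 0 called. Their summed level ran from 13.47 to 14.43 in heat selected and from 12.66 to 13.38 in control lines on the log2 scale, and their mean was 9.83 in cold selected replicate 3 and 9.78 in knock-down selected replicate 2, each the highest of its group. Of the 12 eggshell and follicle cell markers tested, of 16 listed, 12 were below 0, with a median of -0.69, and 3 were called lower: Femcoat (-1.72), Cp19 (-1.18) and Cp16 (-1.11). The eggshell sum ran from 15.41 to 16.30 in heat selected and from 16.25 to 16.52 in control lines, and its mean was 12.15 in cold selected replicate 3, the highest of its group, and 11.44 in knock-down selected replicate 2, the lowest of its group. Of 6 fat body and yolk markers tested, of 7 listed, 5 were below 0 and 1 was called lower, the storage protein gene Lsp2 (-4.05), and the sum ran from 15.51 to 16.01 in heat selected and from 15.89 to 16.01 in control lines. The mean of the fat body and yolk markers was lowest of its group in knock-down selected replicate 2, at 10.50, and 10.99 in cold selected replicate 3. The part of these tissues in the values of the 9 genes was not tested. Of 10 testis markers on the array, 0 passed the filter, with means between 1.54 and 3.68.

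Among the 9 genes, the pairs with the highest correlation over the 24 arrays included those low on the same arrays. CycE correlated with bcd at r = 0.89, with nos 151690_at at 0.87 and with orb 142731_at at 0.84. Within groups, after each group mean was taken off, these were 0.83, 0.86 and 0.75. Of all 55 pairs of probe sets 39 were above 0, and the median was 0.31. Every pair below 0 held grk or otu, and the 36 pairs without these genes had a median of 0.51. The correlation of grk with bcd was -0.54, and that of otu with orb 142731_at was -0.47. The 24 points share groups, normalization and the same low arrays.

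**Figure D5:**
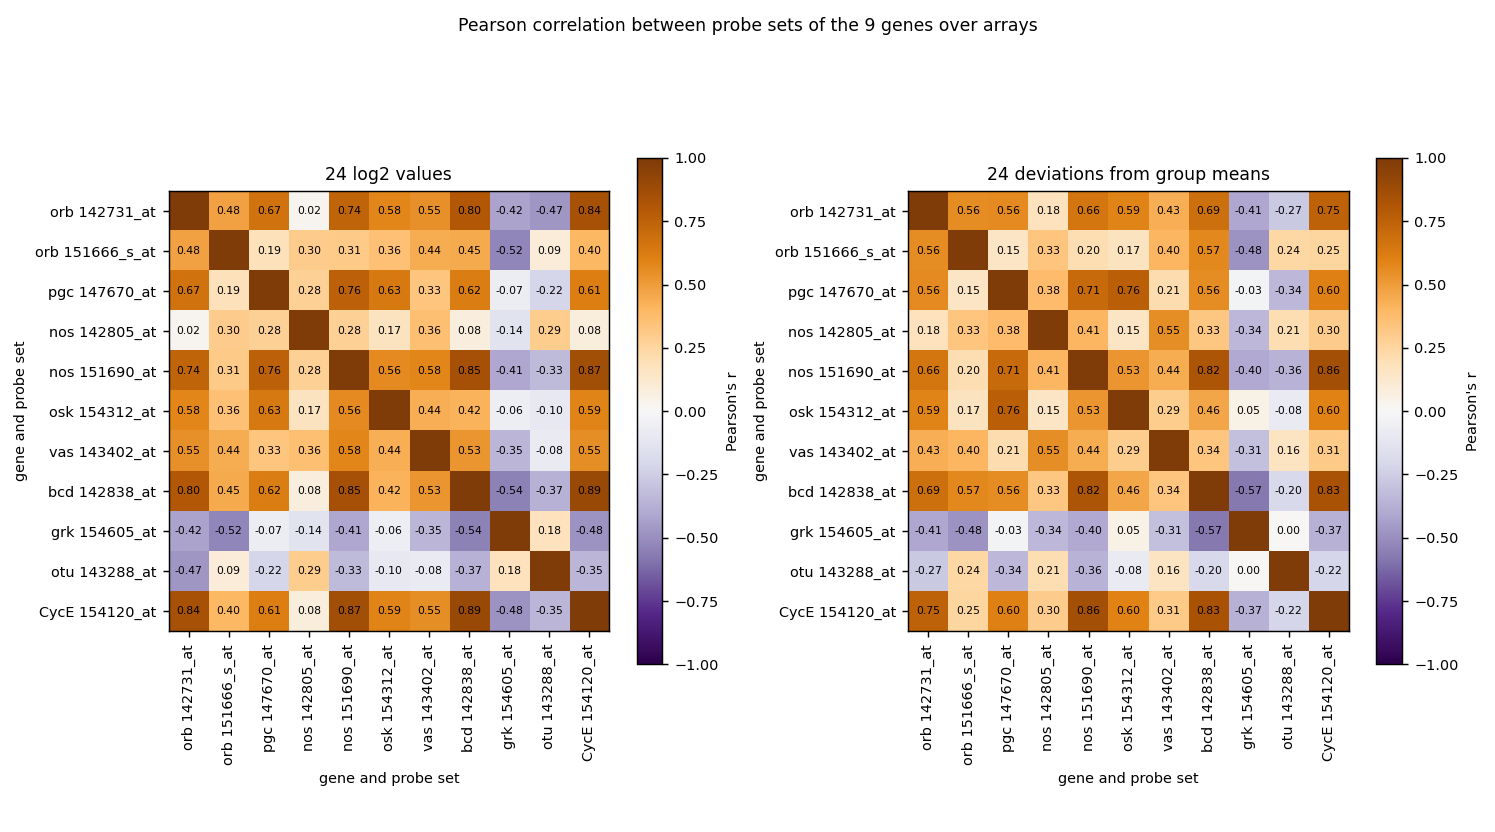
Pearson correlation of each pair of the 11 probe sets over the 24 arrays (left) and after subtraction of each group mean (right), with colour from -1 to 1. On the left, CycE correlates with bcd, nos (151690_at) and orb (142731_at) at 0.84 to 0.89, and grk and otu are negative with most others.

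For each gene, the 3 other genes with the most similar values over the 24 arrays were taken from all tested probe sets. CycE was most like Pak (r = 0.94), Pcif1 (0.93) and msps (0.93), and bcd was most like Pak (0.90), CycE (0.89) and Klc (0.89). The msps product binds microtubules, Klc is the light chain of kinesin, and Pak is a kinase that acts on the cytoskeleton. The orb probe set 142731_at was most like hrm (0.94), Su(z)12 (0.91), a Polycomb group protein, and CG12084 (0.90). The nos probe set 151690_at was most like Ran (0.92), the GTPase of nuclear transport, Nup93-1 (0.91), a nuclear pore protein, and spdi (0.91). The osk values were most like ovo (0.77), a transcription factor of the female germ line, Kap-alpha3 (0.76), an importin, and CG9171 (0.76), and pgc was most like cold (0.81), CG1847 (0.79) and CG9171 (0.78). The vas values were most like mtSSB (0.78), Akt (0.77) and san (0.74), and those of grk were most like CG17027 (0.77), Myo95E (0.77) and NK7.1 (0.76). The otu values were most like Atx2 (0.82), mthl1 (0.81) and Pisd (0.81).

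Beyond the 9 genes, 68 other genes of the germ line and its cell cycle were tested in 7 lists. In heat selected lines against control 54 of 68 were below 0 (46.5% of all tested), with a median of -0.10 against 0.01 over all tested. Limma called 1 of 68 lower and 0 higher, where it called 0.842% of all tested lower and 2.84% in either direction. The called gene was Hrb27C, an RNA-binding protein that acts in grk RNA localisation, at -0.28 ± 0.06 (adjusted p = 0.0294). Against the other 6 regimes 48 of 68 were below 0 (40.3% of all tested), with a median of -0.05 against 0.04. There 6 of 68 were called lower, where 4.06% of all tested were called lower, and 2 were called higher. Both directions together gave a share near the 11.1% called of all tested. The split by direction was not tested. The lists were counted by the probe set of highest mean for each gene. At an unadjusted p under 0.05 in limma, 8.99% of all tested were lower against control. Against the other 6 regimes 31.1% of all tested had such a p in either direction.

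In the list on RNA localisation and translational control, 7 of 9 genes were below 0 against control. Hrb27C was called in both comparisons, and enc, needed for germ cell cysts and for grk localisation, was higher against the other regimes by 0.28 ± 0.07 (adjusted p = 0.0235 in limma). The enc mean was 8.29 in heat selected and 8.26 in control lines, so this difference too lay in lower values of the other regimes. The me31B gene, which encodes a helicase of stored maternal RNA, had -0.27 (adjusted p = 0.0832), and wisp, a poly(A) polymerase that acts on maternal RNAs, had -0.28 (adjusted p = 0.113). The smg gene, which encodes a translational repressor of nos, had -0.22 (adjusted p = 0.154).

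In the list on oocyte determination and transport, 6 of 8 genes were below 0 against control and 0 were called in limma. At an unadjusted p under 0.05 there were 4 of 8, 3 of them lower (8.99% of all tested were lower at this p). Against the other 6 regimes, baz, the Par-3 polarity protein, was lower by 0.61 ± 0.11 on the log2 scale (adjusted p = 0.00962 in limma). In the same comparison egl, an adaptor that links RNAs to dynein, was lower by 0.27 ± 0.07 (adjusted p = 0.0245). Neither gene was called against control. BicD, the partner of egl in transport, had -0.25 against control (adjusted p = 0.160), and shot, a linker of microtubules and actin, had 0.25 (adjusted p = 0.141).

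In the pole plasm and posterior list, 11 of 12 genes were below 0 against control, with a median of -0.08. In each comparison 0 were called and 1 of 12, lower, had an unadjusted p under 0.05 in limma. Of all tested, 8.99% were lower at this p against control. Against the other regimes 31.1% had such a p in either direction. The spir gene, which encodes an actin nucleator, had -0.34 (adjusted p = 0.207 in limma), and pum, the partner of nos in translational repression, had -0.16 (adjusted p = 0.298). For 2 genes of this list another probe set was called against the other regimes, with par-1 141645_at at -0.27 and spir 151521_r_at at 0.25. The 2 spir values came from different comparisons, so they do not show whether its probe sets differ in direction.

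In the grk signalling list 5 of 8 genes were below 0 against control, with a median of -0.04. In both comparisons 0 were called and 0 had an unadjusted p under 0.05 in limma, where 31.1% of all tested did against the other regimes. In the list of germ line stem cell, sex and ring canal genes, 6 of 9 were below 0 and 0 were called against control in limma (2 at an unadjusted p under 0.05). Against the other regimes ovo was lower by 0.35 ± 0.10 (adjusted p = 0.0285 in limma) and kel, a ring canal protein, by 0.27 ± 0.07 (adjusted p = 0.0227). In the same comparison twin, a deadenylase that shortens poly(A) tails, was higher by 0.59 ± 0.13 (adjusted p = 0.0159). None of these genes was called against control. The twin means of heat selected and control lines were both 8.85, so the difference lay in lower values of the other regimes. A second twin probe set (150494_at) was called as well, at 0.47. Of the piRNA list 8 of 9 were below 0 in both comparisons. Against control 0 were called (3 at an unadjusted p under 0.05), and krimp, a tudor protein of the nuage, was called lower against the other regimes at -0.45 ± 0.10 (adjusted p = 0.0159 in limma). Against control krimp had -0.47 (adjusted p = 0.0545).

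CycE was set beside the other cell cycle genes. Of 13 tested, of 18 listed, 11 were below 0 in heat selected lines against control, with a median of -0.14. Limma called 0 in both comparisons, with 4 at an unadjusted p under 0.05 against control and 1 against the other regimes. The 4 were lower, where 8.99% of all tested were, and against the other regimes 31.1% of all tested had such a p. The 4 with the smallest p were fzr, an activator of the anaphase promoting complex that is needed for endocycles, at -0.24 (adjusted p = 0.138 in limma), CycD at -0.23 (adjusted p = 0.167), dup, a replication licensing factor, at -0.25 (adjusted p = 0.194), and fzy at -0.21 (adjusted p = 0.198). Each of these changes was smaller than that of CycE, and the differences between genes were not tested.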

How the data were processed

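The deposited values are log2 expression values that the authors made with GCRMA, which corrects background and normalizes between arrays, per the submitters' processing notes. The scale was read from the values, and the version and settings of GCRMA are not stated. Per the labels' protocols, 5 micrograms of total RNA were primed with oligo-dT, so probe sets far from the 3 prime end depend on RNA length.

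Nothing was renormalized. The 44 control probe sets, and those above a log2 value of 4 on fewer than 3 arrays, were left out. Limma 3.58.1 in R 4.3.3 fitted 1 mean per group (16 residual and 3.56 prior degrees of freedom). P-values are two-sided and adjusted within each comparison. The fit was tested on simulated data, and the number of arrays limits the precision. Gene names came from the platform annotation, updated through the RefSeq gene table, and no sequence was used here. List genes were named when called, or as 1 of up to 4 with the smallest p in the comparisons with most calls. The genes and lists were chosen with earlier results of these data known. Alternatives covered the filter, quantile normalization, the arrays in the fit, array weights, RNA quality as a covariate, the adjustment, the replicate block and each array left out.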

Additional observations from a re-analysis of the deposited data

How the results depend on the processing

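No change of the 9 genes past the threshold reversed under any alternative run. The count of 1 of 11 probe sets called in heat selected lines against control became 0 with only the 6 arrays compared, 0 with RNA quality as a covariate and 0 with p adjusted over the 7 comparisons together. It ran from 0 to 2 when 1 array was left out, with orb 142731_at added without heat selected replicate 3. The adjusted p of CycE there ranged from 0.0199 to 0.281 over all alternatives, and leaving out an array gave 0.148 for control replicate 1, 0.124 for control replicate 2, 0.0744 for heat selected replicate 1 and 0.178 for heat selected replicate 2. Set against the other 6 regimes, the count of 2 became 4 with no filter, which added pgc and bcd, and 0 with RNA quality as a covariate. It ran from 0 to 5 with 1 array left out: 0 without heat selected replicate 2, 4 without heat selected replicate 3 or cold selected replicate 3, and 5 without knock-down selected replicate 2. The cause of these differences was not tested. The share of all tested probe sets called under each alternative is not given here, so these counts cannot be read as particular to the 9 genes. Lines with the same replicate number were not paired by the labels, and their deviations correlated at a median of 0.07 over 84 pairs (-0.02 for different numbers). With the replicate number as a block the counts stayed at 1 and 2, with an adjusted p of 0.0238 and 0.0100 for CycE and 0.0110 for orb. With array weights in limma, the adjusted p of CycE was 0.0274 against control and 0.0176 against the other 6 regimes. That of orb 142731_at was 0.0146 against the other 6 regimes. Of 99 changes of single probe sets, 41 changed sign in at least 1 alternative, the largest of them 0.19 in size, so small changes have no settled direction. Signal over background was not assessed beyond the filter.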
